A study of Mus musculus with 2 samples.

Results

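The 10 cytokine receptor genes described here are Il7r, Il2ra, Il2rb, Il2rg, Il4ra, Il18r1, Il18rap, Il12rb2, Il6ra and Ifngr1. They were chosen by name, and each matched 1 of the 32285 genes counted in both libraries. Their RNA was measured in single CD8+ T cells sorted from tumors of the transplanted mouse melanoma line B16 F0. The lean library came from male C57BL/6 mice of 16 weeks on normal chow (NC), and the obese library from male mice of the same strain and age on western diet (WD). Both diets were given for 12 weeks, all mice carried the same tumor line, and tumors were taken on day 14. CD8+ cells were enriched with magnetic beads and then sorted to at least 99% purity. Each group is 1 library, and the number of mice in it is not given in the sources used here, so differences between mice cannot be told apart from differences between diets.

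Cytokine receptors are built from shared and private chains. The IL-7 receptor alpha chain (Il7r) pairs with the common gamma chain (Il2rg) and carries survival signals in resting and memory T cells, and T cells lower it when they are activated. The IL-2 receptor alpha chain (Il2ra, CD25) appears on activated T cells, where it joins the beta chain (Il2rb) and the gamma chain to form the high-affinity receptor. IL-12 and IL-18 together drive interferon gamma production in effector T cells, IL-12 through Il12rb2 and its partner Il12rb1, and IL-18 through the ligand-binding chain Il18r1 and the accessory chain Il18rap.

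The data are counts of unique molecular identifiers (UMIs), each marking 1 captured RNA molecule. Cells were kept with over 500 and under 50000 UMIs, of which mitochondrial genes gave under 7.5%. Of 5320 deposited cells, 2456 lean and 2289 obese cells met these limits. They held 27815785 and 28705830 UMIs, with a median of 7958 and 9103 UMIs per cell. A UMI of Cd8b1 was found in 91.5% of lean and 91.8% of obese cells, and a UMI of Cd4 in 0.692% and 0.786%. Levels are given as CPM, the UMIs of a gene per 1000000 UMIs of the cells summed. Summed levels of 4 CD4 or regulatory T cell markers (9.46 and 11.5 CPM) and of 6 melanoma markers (1.22 and 1.43) were low, and those of 8 myeloid markers were 25.2 and 30.7. Red cell markers stood apart: 5 of 5 were at 0 in the lean library and their summed level in the obese library was 321 CPM, and 3 of 5 dendritic cell markers with enough UMIs were also higher there. Their part in the receptor values was not tested, and without the 2 clusters that these markers lead (numbered 4 and 5) the same 3 receptors were past the mark set out with the first comparison. The libraries shared 2 of the kept cell barcodes. CPM have exact Poisson 95% intervals, shares of cells have exact binomial (Clopper-Pearson) intervals, and ratios have exact conditional binomial intervals. With 1 library per group no test was possible, and every interval covers counting error only.

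On the mouse genome build GRCm38, which mm10 of the labels also names, the genes lie on 8 chromosomes. Il18r1 (chromosome 1, 40465552 to 40500854) and Il18rap (chromosome 1, 40515362 to 40551705) are neighbours on the plus strand, 14507 bases apart with 0 genes between them. Il7r lies on chromosome 15 (9505788 to 9530176, minus strand) and Il2ra on chromosome 2 (11642807 to 11693193, plus strand). Il12rb2 (chromosome 6, 67291318 to 67376188, minus strand) overlaps exons of Serbp1, an abundant gene of the opposite strand. Whether the counts kept the strand is not given in the sources used here. The promoters of the pair that marks the 2 activation states and of the pair with the lower values in the obese library are shown for their sequence context. Each window runs from 250 bases before to 50 bases after the RefSeq start site, 5′ to 3′ along the gene. Capitals mark matches to the core STAT motif TTCNNNGAA. STAT proteins are transcription factors switched on by the receptors described here other than the IL-18 receptor chains.

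Il7r (chr15:9529827-9530126, minus strand): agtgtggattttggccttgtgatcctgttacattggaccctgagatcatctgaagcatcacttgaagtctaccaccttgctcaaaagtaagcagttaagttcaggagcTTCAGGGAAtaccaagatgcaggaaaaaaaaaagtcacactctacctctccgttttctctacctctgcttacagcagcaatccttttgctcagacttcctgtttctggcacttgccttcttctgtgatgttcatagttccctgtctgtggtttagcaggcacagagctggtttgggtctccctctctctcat

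Il2ra (chr2:11642542-11642841, plus strand): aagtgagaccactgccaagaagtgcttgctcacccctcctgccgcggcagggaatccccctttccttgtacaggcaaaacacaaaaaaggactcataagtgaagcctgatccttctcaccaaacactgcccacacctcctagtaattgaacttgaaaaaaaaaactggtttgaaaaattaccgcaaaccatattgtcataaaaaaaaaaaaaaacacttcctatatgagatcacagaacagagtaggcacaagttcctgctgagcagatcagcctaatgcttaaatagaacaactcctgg

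Il18rap (chr1:40515112-40515411, plus strand): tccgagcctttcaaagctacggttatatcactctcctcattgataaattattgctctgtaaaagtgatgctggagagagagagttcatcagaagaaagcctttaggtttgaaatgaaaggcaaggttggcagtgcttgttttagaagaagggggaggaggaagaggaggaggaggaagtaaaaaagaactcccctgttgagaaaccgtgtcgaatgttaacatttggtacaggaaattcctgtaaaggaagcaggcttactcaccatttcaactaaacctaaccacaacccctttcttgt

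Il12rb2 (chr6:67376139-67376438, minus strand): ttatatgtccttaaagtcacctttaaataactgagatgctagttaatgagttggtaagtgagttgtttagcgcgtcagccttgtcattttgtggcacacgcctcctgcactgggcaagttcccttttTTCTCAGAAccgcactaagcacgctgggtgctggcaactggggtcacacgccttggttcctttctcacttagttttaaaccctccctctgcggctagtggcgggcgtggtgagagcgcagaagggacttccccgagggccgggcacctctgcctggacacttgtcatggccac

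The Il7r window held 1 STAT core beginning 142 bases before its RefSeq start site, and the Il12rb2 window 1 beginning 123 bases before its own. The windows of Il2ra and Il18rap held 0. Among the 11 windows of the 9 genes with an entry, 3 held the motif, the third being a window of Il18r1. Of all 32851 windows, 8.3% did. The Il7r window and this Il18r1 window lie wholly inside the gene spans given above, so their RefSeq starts differ from the starts of those spans. The motifs TGANTCA (AP-1), GTAAACA (forkhead) and TCACACC (T-box) were also searched on both strands. They were in 0 of the 11 windows, against 7.81%, 3.65% and 3.98% of all windows. Il2rb had no window. These matches describe letters only and no binding was measured.

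Across all cells, Il12rb2 differed most between the libraries and was lower in the obese one, followed by Il6ra, which was higher, and Il18rap, which was lower. Il7r and Il2ra, the receptors that mark resting and activated cells, had like levels in both libraries. A difference was marked where the higher level exceeded the lower by over 25%. By this mark 1 of the 10 genes was higher in the obese library (Il6ra), 2 were lower (Il18rap and Il12rb2) and 7 were within it. Over the 7064 genes with at least 10 CPM in 1 library, 8.13% were higher and 4.11% lower by the same rule, so 1 in 10 higher is close to the background. Il6ra (9.13 CPM in the lean library) and Il12rb2 (6.76 CPM in the obese library) reached 10 CPM only in the library where each was higher. Their calls therefore rest in part on the library that let them in. The median log2 ratio was -0.08 for the 10 genes and 0.04 for all genes tested. With TMM scaling the same 3 genes were past the mark, while the share of higher calls among all calls moved from 66.4% to 52.4%.

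**Figure D1:**
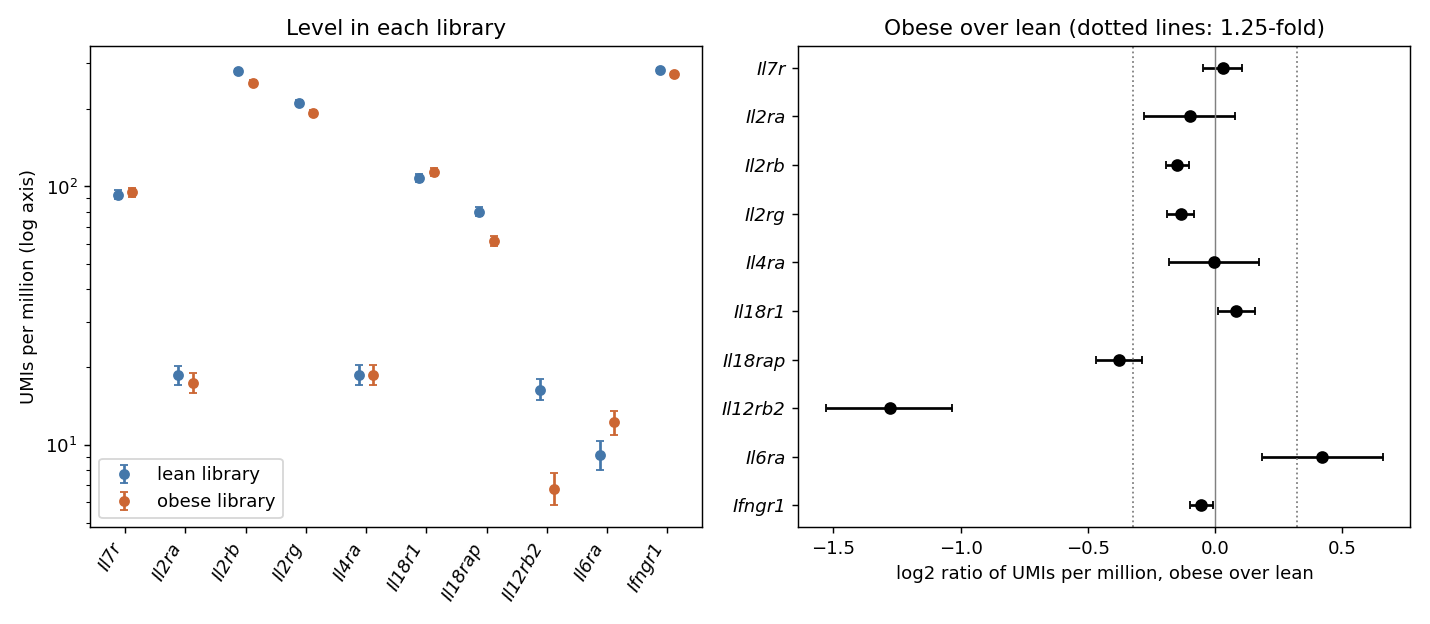
Left, level of each gene in the lean (blue) and obese (orange) library in CPM on a log axis. Right, log2 ratio of obese over lean for each gene, with dotted lines at the 25% mark. Bars are 95% intervals of counting error. Il12rb2 (-1.28) and Il18rap (-0.38) lie beyond the left line and Il6ra (0.42) beyond the right one. Heights of different genes on the left are not comparable, since capture differs between transcripts.

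Il7r was at 92.9 CPM (89.3 to 96.5) in the lean and 94.9 CPM (91.3 to 98.5) in the obese library. Its log2 ratio of obese over lean was 0.03 (-0.05 to 0.11), and the intervals of the levels overlapped. A UMI of Il7r was found in 38.2% of lean and 38.4% of obese cells, and in 18.5% and 20% after each cell was thinned to 2000 UMIs. Thinning sets cells of all depths on the same footing, and left out 126 lean and 112 obese cells that were too shallow. With all deposited cells the log2 ratio was -0.14, and it was 0.11 as a mean over cells.

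Il2ra was at 18.6 CPM (17.1 to 20.3) in the lean and 17.4 CPM (15.9 to 19.0) in the obese library, a log2 ratio of -0.10 (-0.28 to 0.08). It was found in 11.8% and 11.6% of cells. Its UMIs were concentrated, since the 10 cells with the most held 14.9% of them in the lean and 15.6% in the obese library, with up to 13 and 11 UMIs in 1 cell. After thinning, the shares were 2.23% (1.67 to 2.92) and 2.30% (1.71 to 3.02), which do not differ beyond counting error.

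Il2rb, the chain that binds IL-2 and IL-15 and signals, was at 279 CPM in the lean and 252 CPM in the obese library, a log2 ratio of -0.15 (-0.19 to -0.10). Il2rg, the chain shared by the receptors for IL-2, IL-4, IL-7 and IL-15, was at 211 and 192 CPM, a ratio of -0.13 (-0.19 to -0.08). Both differences were beyond counting error and within the 25% mark. General T cell transcripts moved with them: Cd3e had 627 CPM in the lean and 566 CPM in the obese library, and 0 of 8 such genes were past the mark, with a median of -0.13. The part of this in the receptor values was not tested.

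Il4ra, the ligand-binding chain for IL-4, was at 18.7 CPM in each library (log2 ratio -0.00, -0.18 to 0.18). After thinning its ratio was -0.40, past the 25% mark, and it was found in 5.15% (4.29 to 6.13) of lean and 3.86% (3.09 to 4.76) of obese cells. Ifngr1, the ligand-binding chain for interferon gamma, was at 281 and 271 CPM, a ratio of -0.05 (-0.10 to -0.01). Ifngr2, its signalling partner, was far less often counted, at 0.971 CPM in the lean (27 UMIs) and 1.88 CPM in the obese library (54 UMIs). A UMI of both chains was found in only 11 lean and 28 obese cells.

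Il12rb2 was at 16.4 CPM (14.9 to 18.0; 456 UMIs) in the lean library and 6.76 CPM (5.84 to 7.78; 194 UMIs) in the obese library. The lean level was 2.43-fold the obese level, a log2 ratio of -1.28 (-1.53 to -1.03), and the intervals were far apart. The share of cells with a UMI was 14.2% against 7.03%, and after thinning 3.13% (2.46 to 3.92) against 1.33% (0.894 to 1.91). No single cell carried the difference: the 10 cells with the most UMIs held 9.65% of the lean and 14.9% of the obese UMIs. Serbp1, whose exons it overlaps, had 855 CPM in the lean and 892 CPM in the obese library, a ratio of 0.06. The ratio of Il12rb2 ranged from -1.63 to -1.13 over the other ways of choosing and scaling cells, and it was -1.21 without clusters 4 and 5. The cells left out by the filters, which were counted separately, had 18.1 CPM in the lean (110 UMIs) and 7.48 CPM in the obese library (76 UMIs), so the order of the libraries was the same there.

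Il18rap was at 80.0 CPM (76.7 to 83.3) in the lean and 61.6 CPM (58.7 to 64.5) in the obese library, a log2 ratio of -0.38 (-0.47 to -0.29). It was found in 42.5% and 36.6% of cells, and in 14.5% and 10.9% after thinning. Il18r1, its partner chain, had levels of 107 CPM (104 to 111) and 114 CPM (110.0 to 118), a ratio of 0.08 (0.01 to 0.16), and was found in 52.6% and 52.7% of cells. The median of the ratios of Il18r1, Il18rap and Il12rb2 was -0.38. The IL-18 receptor chains thus differed from each other: the accessory chain was lower in the obese library and the binding chain was not. When both libraries were set to the same mix of clusters, Il18rap had a ratio of -0.29 and no longer passed the 25% mark, nor did it with all deposited cells (-0.25), while it had -0.34 without clusters 4 and 5. Il18r1 turned to -0.15 as a mean over cells and to -0.16 after thinning.

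Il6ra, the binding chain of the IL-6 receptor, was at 9.13 CPM (8.04 to 10.3; 254 UMIs) in the lean and 12.2 CPM (11 to 13.6; 351 UMIs) in the obese library. Its log2 ratio was 0.42 (0.18 to 0.66), and it was found in 8.43% and 11.6% of cells. After thinning the shares were 2.96% (2.31 to 3.73) and 3.67% (2.92 to 4.55), whose intervals overlap. It did not pass the 25% mark after thinning (0.30) or with all deposited cells (0.31), and had 0.40 without clusters 4 and 5.

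Other genes of these pathways were counted from lists. Of 9 further common gamma chain, haematopoietin and other cytokine receptors with enough UMIs, 0 were higher and 3 lower in the obese library. These were Il12rb1, the partner of Il12rb2 (15.2 against 10.8 CPM, log2 ratio -0.49, -0.71 to -0.27), Il10ra (45.2 against 31.9 CPM, -0.50) and Il3ra (23.4 against 18.6 CPM, -0.33). By CPM both chains of the IL-12 receptor were therefore lower in the obese library. At equal depth the share of cells with an Il12rb1 UMI was 3.0% (2.35 to 3.78) in the lean and 3.17% (2.47 to 3.99) in the obese library, so it was not lower by that measure. Il1r2, a decoy receptor for IL-1, was also lower (18.2 against 12.3 CPM, -0.57), 1 of 2 further receptors of the IL-1 family. The 10 cells with the most Il1r2 held 22.2% of its lean and 36.6% of its obese UMIs. At equal depth, shares of cells with Il1r2 (2.27% lean and 1.56% obese), Il3ra (4.42% and 3.90%) and Il10ra (8.07% and 6.52%) had overlapping intervals. Of 4 receptors for type I interferon, TGF-beta and TNF, 0 passed.

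Downstream of the receptors, 4 of 7 genes that cytokine signals induce or that keep T cells alive were higher in the obese library and 0 lower. They were Cish (24.8 against 36.4 CPM, log2 ratio 0.55), Socs1 (69.6 against 91.6, 0.40), Socs3 (45.8 against 71.0, 0.63) and Pim1 (275 against 400.1, 0.54). Cish and the Socs genes encode inhibitors of cytokine signals. Of 11 JAK and STAT genes, 1 was higher, Stat5a (17.5 against 22.2 CPM, 0.34), and 2 lower, among them Jak3, the kinase bound to the common gamma chain (34.1 against 23.3 CPM, -0.55). Stat4, which IL-12 activates, was within the mark at 113 and 116 CPM. Of 5 genes of IL-18 signalling, 1 was higher, Traf6 (8.56 against 10.9 CPM, 0.35). Among the cytokines themselves, 2 of 10 had enough UMIs: Il2 was higher in the obese library (9.78 against 16.8 CPM, 0.78, 0.57 to 1.0), and Ifng was within the mark (580 against 525 CPM, -0.14). Traf6 and Il2 reached the floor of 10 CPM only in the obese library, where each was higher, so they were compared only because of that library.

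To see which cells carried the receptors, the cells of both libraries were clustered on genes other than these and the other listed cytokine receptors. Cluster 0 (1263 cells) was led by Gzma, Ifit3, Ifit1, Ifit3b and Isg15 and is called interferon-stimulated-like. Gzma, and Ccl5 among its first 10 genes, are instead markers of memory-like cells. A UMI of Ifit1 was found in 319 lean and 392 obese cells of all clusters, fewer than the 494 and 769 cells of cluster 0. The name therefore stands for leading genes and not for every cell of the cluster. Cluster 1 (1061 cells) was led by Pclaf, Hist1h2ae, Birc5, Stmn1 and Hist1h1b (proliferating-like), cluster 2 (1001 cells) by genes that include Satb1, Lef1, Tmem108 and Tcf7 (naive- or memory-like), and cluster 3 (935 cells) by Gzmd, Gzmf, Penk, Gzme and Lgals3, with the myeloid gene Lyz2 among its first 10 (effector-like). Cluster 4 (462 cells) had few UMIs per cell, with medians of 2505.5 and 3007 in the lean and obese library, was led by globin genes, counted in the obese library only, and Gm26917, and has no name. Cluster 5 held 23 dendritic-like cells, of which 8 were lean, and is not described further. The mix of clusters differed between the libraries. Cluster 3 held 25.3% of lean and 13.7% of obese cells, and cluster 0 held 20.1% and 33.6%. Cluster 1 held 19.5% and 25.5%, cluster 2 held 23.5% and 18.6%, and cluster 4 held 11.3% and 8.04%. With both libraries set to the same mix, the log2 ratio of obese over lean was -1.13 for Il12rb2 and -0.29 for Il18rap.

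Il7r was highest in the naive- or memory-like cluster 2, with 297 CPM (281 to 313) in the lean and 342 CPM (323 to 361) in the obese library. The interferon-stimulated-like cluster 0 followed with 204 and 185 CPM, and its intervals lay apart from those of cluster 2 in both libraries. Effector-like cluster 3 had 52.5 and 30.7 CPM, cluster 4 had 28.5 and 35.1 CPM, and proliferating-like cluster 1 had 19.7 and 22.4 CPM. The intervals of clusters 4 and 1 overlapped in both libraries, and those of clusters 3 and 4 overlapped in the obese library. Such an overlap does not show that the levels are alike. Cluster 2 alone held 51.9% of all lean and 44.5% of all obese Il7r UMIs.

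Il2ra was highest where Il7r was low. It was at 25.2 CPM (21.9 to 28.8) in the lean and 31.7 CPM (26.9 to 37.2) in the obese cells of effector-like cluster 3, and at 22.7 and 20.4 CPM in proliferating-like cluster 1. These clusters differed beyond counting error in the obese library only, and cluster 4, with 27.3 and 24.7 CPM, had wide intervals that overlap both. Cluster 0 had 6.98 and 3.87 CPM, and naive- or memory-like cluster 2 had 1.77 and 1.41 CPM, from 8 and 5 UMIs. A UMI of Il2ra was found in 27.4% of lean and 25.2% of obese cells of cluster 1 (median 22232 and 22807 UMIs per cell) but in 1.22% and 1.18% of cells of cluster 2 (median 7466.5 and 7860). Where the few Il2ra UMIs of cluster 2 come from was not tested. After thinning, the shares were 2.72% and 3.95% in cluster 1, 4.50% and 4.47% in cluster 3, and 0.521% and 0 in cluster 2.

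Over the 10 sums of 5 clusters in 2 libraries, Pearson's r of log2(CPM + 10) between Il7r and Il2ra was -0.95, and it was -0.80 over 18 sums at the finer clustering resolution of 0.8. This is a description over sums that share libraries, with no test. Il2rb ran with Il2ra (r = 0.95) and against Il7r (r = -0.90), while Il6ra ran with Il7r (r = 0.85) and against Il2ra (r = -0.85). Among 4352 genes, those most like Il7r were Fam189b, Klf3, Klf2, Klhl6 and Gm20186, each with an r of 0.97. Klf2 is a transcription factor of resting T cells and ranged from 175 to 1937 CPM. Those most like Il2ra were Ehd1, Ciapin1, Rbpj, Gpr65 and Znhit1, each with an r of 0.98.

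**Figure D2:**
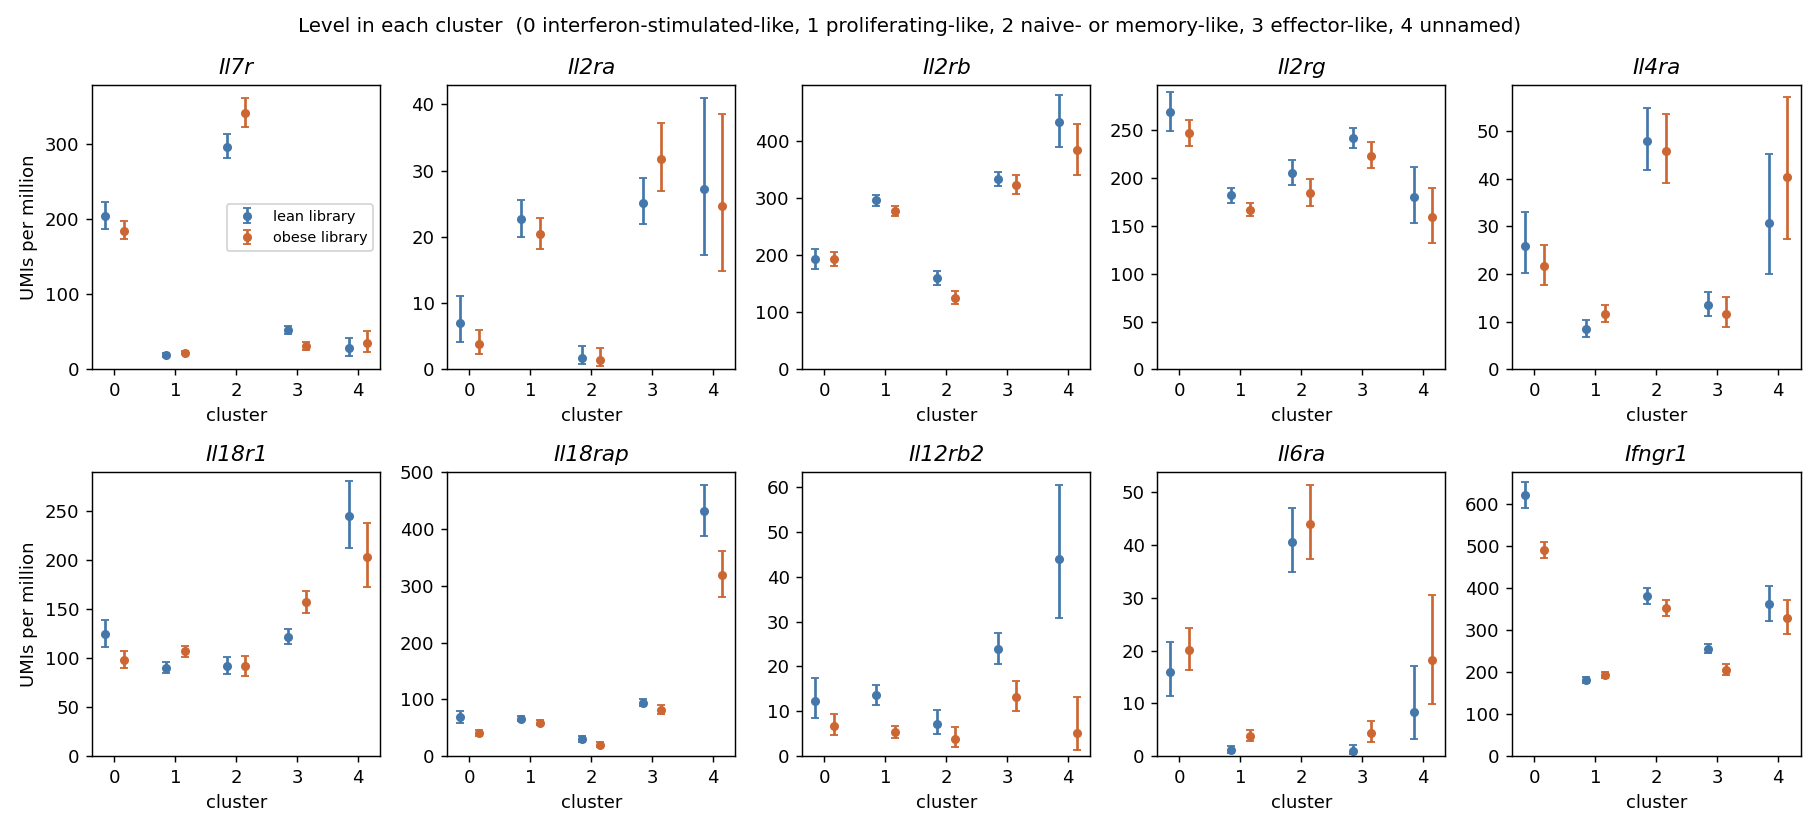
Level of each gene in CPM (vertical axes start at 0) in clusters 0 to 4 of the lean (blue) and obese (orange) library. Bars are 95% intervals of counting error. Il7r and Il6ra peak in cluster 2 while Il2ra and Il2rb are lowest there, and Il18rap is highest in cluster 4 (431 and 320.0 CPM).

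Among the other receptors, Il6ra was highest in clusters 2, 0 and 4. It had 40.7 and 43.9 CPM in cluster 2, 15.9 and 20.1 CPM in cluster 0, and 1.08 to 4.38 CPM in clusters 1 and 3. Il4ra was likewise highest in cluster 2 (48.0 and 45.9 CPM) and low in cluster 1 (8.50 and 11.6 CPM) and cluster 3 (13.6 and 11.7 CPM). Ifngr1 was highest in interferon-stimulated-like cluster 0, with 621 CPM in the lean and 489 CPM in the obese library, and lowest in proliferating-like cluster 1, with 181 and 193 CPM. Il2rg varied least, from 159 to 268 CPM over the 10 sums.

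The IL-18 receptor chains were high in cluster 4, where Il18r1 had 244 and 203 CPM and Il18rap 431 and 320.0 CPM. A UMI of Il18rap was found in 50.3% and 45.3% of its cells after thinning, against 3.06% to 16.6% in clusters 0 to 3. These are the shallowest cells, and what part their low depth has in this level was not tested. Of the named clusters, cluster 3 had the most Il18rap (94.2 and 82.2 CPM) and cluster 2 the least (30.7 and 20.6 CPM). Il12rb2 was at 23.9 CPM (20.7 to 27.4) in the lean and 13.1 CPM (10.1 to 16.8) in the obese cells of cluster 3, above clusters 0, 1 and 2 of the same library with intervals apart. Lean cluster 4 had 43.9 CPM from 37 UMIs and obese cluster 4 had 5.20 CPM from 4 UMIs.

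Within clusters, Il12rb2 was lower in the obese library in 5 of 5, with log2 ratios from -3.08 to -0.86, and in 4 of 5 the interval lay below 0. The exception was cluster 2, with 33 and 14 UMIs (-0.89, -1.90 to 0.05). Il18rap was also lower in 5 of 5 clusters, with ratios from -0.76 (cluster 0) to -0.17 (cluster 1), all 5 intervals below 0. Il2rg was lower in 5 of 5 by -0.18 to -0.11, with 3 intervals below 0. The lower values of Il12rb2 and Il18rap over all cells were thus also present within each cluster, although those of Il18rap in clusters 1 and 3 (-0.17 and -0.20) were smaller than over all cells.

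Other receptors had ratios that varied from cluster to cluster, and whether they differ was not tested. Il6ra was at like levels in cluster 2, where it was most abundant (0.11, -0.21 to 0.43), but higher in the obese library in cluster 1 (1.14 against 3.82 CPM, from 13 and 54 UMIs, 1.74, 0.85 to 2.74) and cluster 3 (1.08 against 4.38 CPM, from 9 and 21 UMIs, 2.02, 0.83 to 3.33). The share of all Il6ra UMIs in clusters 1 and 3 was 5.12% and 3.54% in the lean and 15.4% and 5.98% in the obese library. In cluster 1 its share of cells with a UMI was 2.51% against 7.03%, and 0 against 1.20% after thinning. Il7r was lower in obese effector-like cluster 3 (52.5 against 30.7 CPM, -0.78, -1.05 to -0.50) and higher in cluster 2 (0.20, 0.09 to 0.32). Il2ra in cluster 3 was 0.33 (0.02 to 0.64) and the other 4 intervals included 0.

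**Figure D3:**
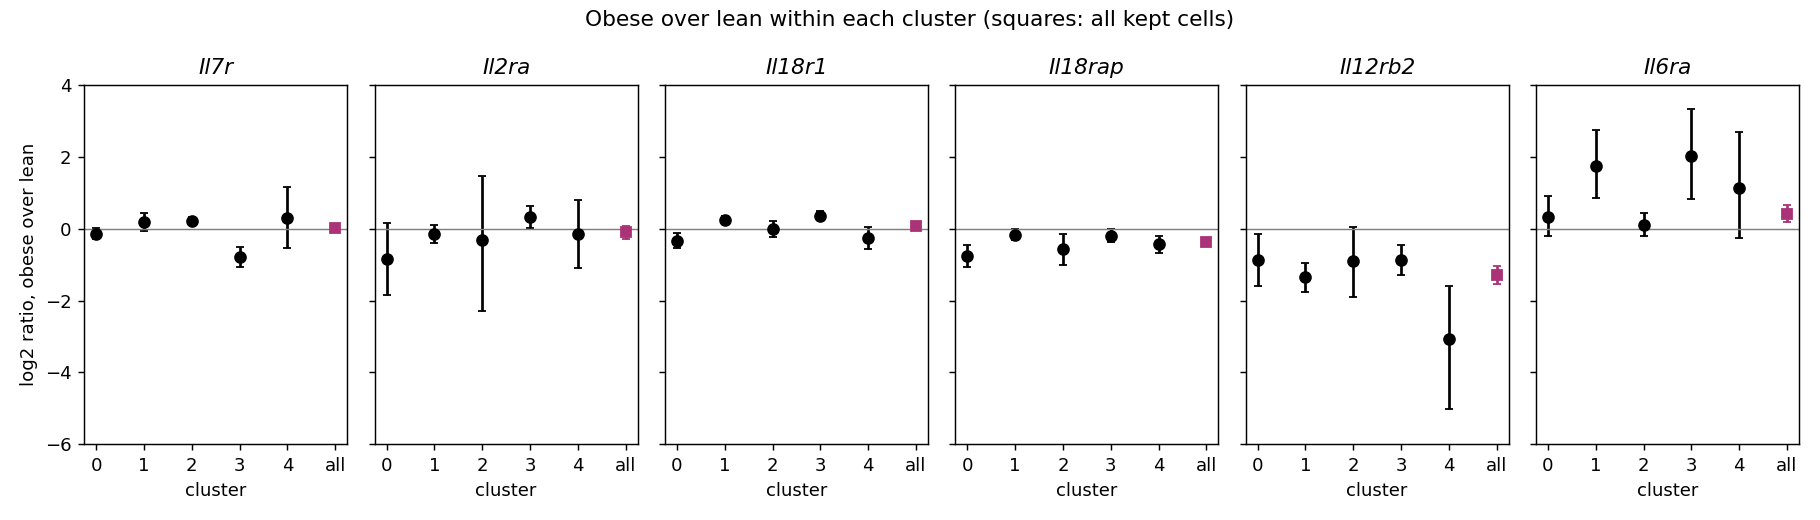
Log2 ratio of obese over lean of 6 receptors within clusters 0 to 4 (black circles) and over all cells (squares), with 95% intervals of counting error. Il12rb2 and Il18rap lie below 0 in every cluster, Il6ra is furthest above 0 in clusters 1 and 3, and Il7r is below 0 in cluster 3.

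Cells were next sorted by whether they had a UMI of Il7r, of Il2ra, of both or of neither. In the lean library 832 cells (33.9%, 32.0 to 35.8) were Il7r-only, and in the obese library 815 (35.6%, 33.6 to 37.6). Il2ra-only cells were 184 (7.49%, 6.48 to 8.60) and 200 (8.74%, 7.61 to 9.97), cells with both 105 (4.28%) and 65 (2.84%), and the rest had neither. Obese minus lean, the shares differed by 1.73 percentage points for Il7r-only (Newcombe interval -0.98 to 4.44) and 1.2 for Il2ra-only (-0.31 to 2.81), so neither differed beyond counting error by this rule. The call depended on the rule: with 2 UMIs to mark a state both shares were higher in the obese library, by 3.28 points (0.90 to 5.66) and 1.19 points (0.20 to 2.20). With all deposited cells the Il2ra-only share was also higher there, by 2.51 points (0.96 to 4.08). After thinning, Il7r-only cells were 18.2% and 19.8%, and Il2ra-only cells 1.89% and 2.11%.

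Depth differed between the states. The median Il7r-only cell had 7635 UMIs in the lean and 8530 in the obese library, and the median Il2ra-only cell 18855 and 22518.5. Of Il2ra-only cells, 50.5% and 57.0% lay in proliferating-like cluster 1 and 37.5% and 29.0% in effector-like cluster 3. Of Il7r-only cells, 47.2% and 38.7% lay in cluster 2 and 21.4% and 38.8% in cluster 0. A UMI of Foxp3, the factor that defines regulatory T cells, which also carry Il2ra, was found in 6 of 184 lean and 4 of 200 obese Il2ra-only cells, and Cd8a in 94.6% and 97.5% of them.

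In the obese library, Il2ra was found in 7.39% (5.75 to 9.32) of cells with Il7r and 14.2% (12.4 to 16.1) of cells without it. In the lean library the shares were 11.2% (9.26 to 13.4) and 12.1% (10.5 to 13.9), which do not differ beyond counting error. After thinning they were 0.920% and 2.64% in the obese, and 1.85% and 2.32% in the lean library. The thinned shares rest on 4 and 8 cells with both.

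The other 8 receptors were then compared between Il2ra-only and Il7r-only cells within each library. Il6ra was the 1 gene of 8 past 2-fold in both libraries, and it was lower in Il2ra-only cells. It had 21.7 CPM in lean Il7r-only cells against 1.07 CPM in Il2ra-only cells (182 and 4 UMIs), and 25.4 against 1.47 CPM in the obese library (220 and 7 UMIs). The log2 ratios were -4.34 (-6.23 to -2.96) and -4.11 (-5.44 to -3.04). Of the states compared, Il6ra reached the floor of 10 CPM only in Il7r-only cells, where it was higher. Over 7514 genes, 4.58% were higher and 3.85% lower in Il2ra-only cells by this rule. The median of the 8 log2 ratios was -0.01 in the lean and 0.09 in the obese library, and that of all genes tested 0.21 and 0.22.

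Ifngr1 and Il4ra were lower in Il2ra-only cells by close to the fold. Ifngr1 had 346 against 173 CPM in the lean (-1.0, -1.12 to -0.87) and 363 against 155 CPM in the obese library (-1.23, -1.34 to -1.11). Il4ra had 24.7 against 12.8 CPM (-0.95) and 28.3 against 13.0 CPM (-1.12). Of the named clusters, both receptors were highest in clusters 0 and 2, which held most Il7r-only cells.

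Il2rb was higher in Il2ra-only cells, with 222 against 314 CPM in the lean (0.50, 0.39 to 0.61) and 187 against 306 CPM in the obese library (0.71, 0.61 to 0.81). The common chain Il2rg did not differ beyond counting error (-0.05 and -0.03). Il18rap was higher in Il2ra-only cells, at 60.6 against 88.7 CPM in the lean (0.55, 0.35 to 0.75) and 42.5 against 87.1 CPM in the obese library (1.03, 0.83 to 1.24). Il18r1 differed little, with ratios of 0.03 (-0.14 to 0.20) and 0.21 (0.07 to 0.36). Il12rb2 was at 13.6 against 19.8 CPM in the lean (0.54, 0.10 to 0.98) and 6.59 against 8.20 CPM in the obese library (0.32, -0.31 to 0.93).

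**Figure D4:**
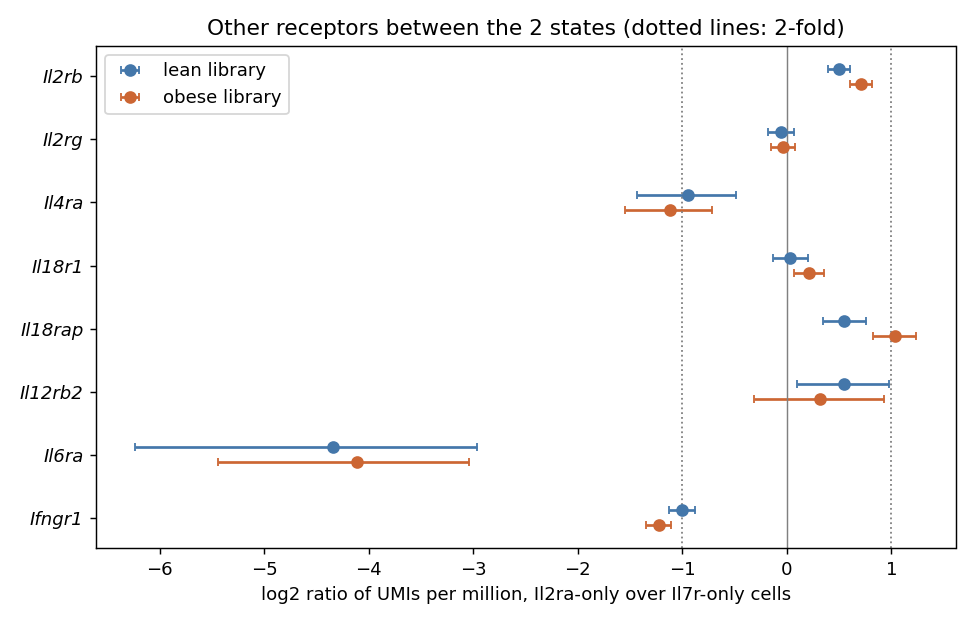
Log2 ratio of Il2ra-only over Il7r-only cells for the 8 other receptors in the lean (blue) and obese (orange) library, with 95% intervals of counting error and dotted lines at 2-fold. Il6ra lies near -4 in both libraries, Ifngr1 and Il4ra near -1, and Il2rb and Il18rap above 0.

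Within proliferating-like cluster 1 alone, where 93 lean and 114 obese Il2ra-only cells met 83 and 104 Il7r-only cells, several of these differences were smaller. Il4ra had ratios of 0.06 (-0.91 to 1.05) in the lean and -0.33 (-1.0 to 0.35) in the obese library, so its lower level was not seen within this cluster beyond counting error. Ifngr1 was still lower (-0.39, -0.60 to -0.18, and -0.68, -0.85 to -0.50). Il2rb had ratios of 0.12 (-0.05 to 0.28) and 0.14 (-0.00 to 0.29), and Il18rap 0.14 (-0.18 to 0.47) and 0.53 (0.22 to 0.84). Il12rb2 had 0.90 (0.10 to 1.75) and -0.16 (-1.10 to 0.80). Il6ra was -0.70 (-3.03 to 1.52) in the lean and -4.19 (-7.31 to -2.20) in the obese library, where cluster 1 held 54 of its UMIs.

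Genes of the cell state lists were counted between the same states. In the resting and memory list, 9 of 10 genes were lower in Il2ra-only cells past 2-fold in both libraries, among them Tcf7 (119 against 6.41 CPM in the lean and 124 against 7.57 CPM in the obese library), Lef1, Klf2 and S1pr1. In the proliferation list 9 of 10 were higher, and among effector genes 5 of 11, such as Xcl1 (210 against 1070 CPM in the lean and 206 against 1279 CPM in the obese library), Ccl3, Gzmb and Prf1. Of 12 activation and costimulation genes, 4 were higher (Tnfrsf4, Tnfrsf9, Tnfrsf18 and Irf8) and 1 lower (Cd69). Of 8 checkpoint genes, 2 were higher, Havcr2 and Entpd1.

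Among pathway genes, 0 of 11 JAK and STAT genes passed, while Stat3 came close (0.94 and 1.02). Of 7 feedback and survival genes, 3 were lower in Il2ra-only cells: Socs3 (92.5 against 11.8 CPM in the lean and 149 against 18.1 CPM in the obese library), Pim2 and the survival gene Bcl2 (144 against 22.4 and 148 against 30.7 CPM). Cish, which IL-2 signals induce through STAT5, had ratios of 0.55 and 0.92. Ifng was higher (395 against 848 and 371 against 745 CPM). Of 10 further common gamma chain, haematopoietin and other cytokine receptors, 2 were lower: Il6st, the signalling partner of Il6ra (-1.39 and -1.73), and Il17ra. Of 2 receptors of the IL-1 family 1 was higher, Il1r2 (2.07 and 2.37). Ifnar2, a chain of the type I interferon receptor, was lower (-1.50 and -1.23), 1 of 4.

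Outside the receptors described, 2849 genes had enough UMIs and were ranked by whichever library had the smaller difference between the states. By this ranking the highest ratios in Il2ra-only cells were those of Ccl1 (4.90 in the lean and 5.43 in the obese library). Those of Cd81, Penk, Xcl1, Cdkn2a, Tnfrsf4, Gzmc, Spp1, Ccl3 and Serpine2 followed. Ccl1 and Xcl1 are chemokines and Tnfrsf4 is the costimulatory receptor OX40. The lowest were those of Tcf7 (-4.21 and -4.03), Lef1, Socs3, Gm2682, Klf2, Fam241a, Emb, Arl4c, Ssh2 and Rgs10. Tcf7, Lef1 and Klf2 are transcription factors of resting and memory T cells.

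Within the states, Il12rb2 was lower in the obese library in each: log2 ratios were -1.04 (-1.53 to -0.57) in Il7r-only cells, -1.27 (-1.87 to -0.69) in Il2ra-only cells, -0.82 (-1.61 to -0.08) in cells with both and -1.49 (-1.89 to -1.11) in cells with neither. Il18rap was lower in Il7r-only cells (-0.51, -0.71 to -0.31) and in cells with neither (-0.52, -0.64 to -0.39), but like in Il2ra-only cells (88.7 and 87.1 CPM, -0.03, -0.24 to 0.19). Whether these ratios differ between states was not tested. Il6ra was higher in the obese cells with both receptors (2.52 against 10.2 CPM, from 6 and 15 UMIs) and with neither (4.67 against 7.88 CPM). Markers of other cell types differed too in the cells with both: Siglech was found in 4 of 65 obese and 0 of 105 lean cells, and Cd4 in 6 and 1. In those cells the summed level of 8 dendritic markers was 801 CPM in the obese and 336 CPM in the lean library, and that of 8 myeloid markers 80.1 and 12.6 CPM. Their part in the Il6ra value was not tested.

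Chains of the same receptor were next counted in the same cell. Il6ra with its partner Il6st was found in only 1.38% of lean and 1.79% of obese cells. Over all clusters, Il18rap was found more often in cells with Il18r1 than in cells without it. The part of differences between clusters in this was not tested. Il18rap was found in 53.6% (50.8 to 56.3) of lean cells with Il18r1 and 30.2% (27.6 to 32.9) of those without, and in 50.8% and 20.8% in the obese library. Deeper cells show more of every gene, and after thinning the shares were 22.6% against 12.4% in the lean and 18.1% against 9.16% in the obese library. Both chains were found in 28.2% (26.4 to 30.0) of lean and 26.8% (25.0 to 28.6) of obese cells, and both with Il12rb2 in 5.66% and 3.98%. Both IL-12 receptor chains were found in 83 lean cells (3.38%, 2.70 to 4.17) and 26 obese cells (1.14%, 0.743 to 1.66). After thinning, both IL-12 receptor chains were found in only 3 lean and 0 obese cells, too few to compare. Both IL-18 receptor chains were then found in 4.51% (3.70 to 5.43) of lean and 3.49% (2.76 to 4.35) of obese cells.

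The 3 chains of the high-affinity IL-2 receptor were found together in 10.1% of lean and 10.4% of obese cells. In clusters 1 and 3 they were found in 26.4% and 17.0% of lean and 24.7% and 21.1% of obese cells. Median UMIs per cell were 22232 in cluster 1 and 11160 in cluster 3 of the lean library. In the obese library they were 22807 and 13786, and the part of depth in these shares was not tested. After thinning, the 3 chains were together in 0.472% of all lean and 0.413% of all obese cells. Il7r with Il2rg was found in 30.5% and 30.6% of cells overall and in 50.9% and 55.3% of cluster 2. Il6ra was found in 16.0% of lean cells with Il7r and 3.75% of those without, and in 19.7% and 6.60% in the obese library. After thinning these were 7.41% against 1.95% and 6.90% against 2.87%.

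Cells with a UMI of Il12rb2 (349 lean and 161 obese) had higher levels of cytotoxic genes than cells without. Gzmb had 1043 CPM without and 2272 CPM with it in the lean library, and 555 and 1079 CPM in the obese library, and Prf1 had 340 and 694 CPM, and 139 and 409 CPM. Tcf7 was lower in cells with Il12rb2, at 68.5 CPM without and 16.6 CPM with it in the lean, and 59.2 and 26.5 CPM in the obese library. Not every resting or effector gene followed. Ccr7 was lower with Il12rb2 in the lean library (67.1 CPM without and 27.2 with) but not in the obese library (61.7 and 62.3). Tbx21 did not differ beyond counting error in either library (0.09, -0.16 to 0.34, and 0.15, -0.20 to 0.48). Cells with Il12rb2 were deeper, with medians of 14249 against 7572 UMIs in the lean and 18572 against 8755.5 in the obese library. In the lean library a UMI of Il12rb2 was found in 24.7% and 22.7% of cells of clusters 1 and 3. In clusters 0 and 2 it was found in 5.87% and 5.21%. The parts of depth and of differences between clusters in these ratios were not tested.

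Cells with a UMI of Il6ra had more RNA of the resting T cell gene Tcf7 and less of Gzmb in the lean library, with Tcf7 at 192 CPM against 48.0 CPM in cells without and Gzmb at 182 against 1388 CPM. In the obese library Tcf7 was at 128 against 46.6 CPM and Gzmb at 357 against 647 CPM. The log2 ratios of Gzmb with over without Il6ra were -2.93 (-3.09 to -2.77) in the lean and -0.86 (-0.95 to -0.77) in the obese library. Depth was alike here, with medians of 7490 against 8037 UMIs in the lean and 8968.5 against 9123 in the obese library. The clusters that carried Il6ra were not alike, since cluster 2 held 72.4% of its lean and 44.4% of its obese UMIs. The part of the clusters in these ratios, and in their difference between the libraries, was not tested.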

How the data were processed

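CD8+ T cells of 1 lean and 1 obese library were analysed. For each library the authors deposited a raw count matrix (UMIs by gene and barcode), and the submitters' processing notes name Cell Ranger 6.0.2. Settings of the counting other than the build mm10 are not given in the sources used here. Groups come from the sample labels. The genes described and the gene lists were chosen with earlier results of these data known. All further steps used Python 3.11.15 (numpy 2.4.6, scipy 1.17.1, pandas 2.3.3) and Seurat 5.3.0 in R 4.3.3.

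CPM is a gene's summed UMIs over the kept cells, scaled by the sum over all genes there. Genes with at least 10 CPM in 1 library, or in 1 state of 1 library, were compared, and a difference was marked past a 25% difference between libraries or past 2-fold in both libraries between states. Each cell was thinned to 2000 UMIs without replacement. Clusters used 2000 variable genes without the receptors, 20 principal components and Louvain clustering at 0.15, the lowest resolution tried that gave at least 6 clusters. They were named from marker lists. The genes named in the text are the 10 receptors, genes of the lists, the 5 genes most like Il7r and Il2ra over the cluster sums with at least 50 CPM in 1 sum, the 10 highest and 10 lowest genes between states with at least 50 CPM in 1 state and 20 UMIs in each, and the leading genes of clusters. Serbp1 was named because its exons overlap a receptor. Scrublet (scanpy 1.11.5) marked 3 of 4745 cells (0.0632%) as doublets and was taken as not having worked, so doublets were not removed. Gene positions are from GENCODE M21 on GRCm38, in which 99.6% of gene identifiers were found, and promoter windows from RefSeq on GRCm38.p6. The ratios and intervals were tested on simulated Poisson counts, and the totals of the thinned cells were checked. Poisson error is what the intervals assume, so this cannot show how they cover UMIs that are concentrated in a few cells. Alternatives were thinning, cell means, scaling by TMM (edgeR 4.0.16) or by totals lacking ribosomal protein and mitochondrial genes, a common cluster mix, other filters on genes and cells, leaving out the cells in the top 5% by Scrublet score, 2 UMIs to mark a state, states within a cluster, and other clusterings. Because Scrublet was taken as not having worked, leaving out its top scores cannot decide what part doublets have in the values. Leaving out clusters 4 and 5 was added after the data were seen. Some genes are not reported here.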

Additional observations from a re-analysis of the deposited data

Results flagged for a closer look

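With 1 library per group no sample could be compared with others of its group. Under the same contrast of obese over lean, 3 receptors had ratios beyond counting error in opposite directions in different clusters. The difference between clusters was not tested for any of them. The share of all genes that do the same was not computed, so this count does not set these receptors apart. Genes with many UMIs have narrow intervals and are flagged at small ratios. The log2 ratio of Il7r was 0.20 (0.09 to 0.32) for cluster 2, naive- or memory-like, and -0.78 (-1.05 to -0.50) in effector-like cluster 3. Il18r1 had -0.34 (-0.54 to -0.13) in interferon-stimulated-like cluster 0, 0.25 (0.13 to 0.37) in proliferating-like cluster 1 and 0.37 (0.23 to 0.50) in cluster 3. Ifngr1 had -0.34 (-0.43 to -0.25) in cluster 0, -0.11 (-0.22 to -0.01) in cluster 2 and -0.32 (-0.43 to -0.21) in cluster 3, against 0.092 (0.01 to 0.17) in cluster 1.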

How the results depend on the processing

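The cause of each change below was not tested unless stated. The count of receptors past the 25% mark was 3, and it was 1 among the 6 receptors with at least 50 CPM (fewer genes tested) and 1 with all deposited cells, where only Il12rb2 passed. It was 2 or 3 under the other 10 alternatives, but after thinning the 3 were Il4ra (-0.40), Il18rap and Il12rb2, all lower, without Il6ra. The log2 ratio of Il7r (0.03) was 0.11 as a mean over cells and -0.14 with all deposited cells, and within its interval under the other 8. That of Il2ra stayed within its interval under all 10 alternatives run (-0.22 to 0.02). The median of Il18r1, Il18rap and Il12rb2 (-0.38) was -0.71 as a mean over cells, -0.50 after thinning and -0.25 with all deposited cells. Il18r1 (0.08) turned to -0.15 as a mean over cells and to -0.16 after thinning. The Il7r-only and Il2ra-only differences in share were 0.17 to 3.28 and 0.22 to 2.51 percentage points over 7 alternatives. Their intervals lay above 0 for both with 2 UMIs to mark a state, and for Il2ra-only with all deposited cells. The median of the other 8 receptors between states was 0.23 in the lean and -0.35 in the obese library after thinning, with wide intervals from few Il2ra-only cells, and within its interval otherwise. At resolution 0.8 the cluster taken in place of cluster 2 had 423 and 440.3 CPM of Il7r in the lean and obese library in place of 297 and 342. Over all genes, 574 were higher and 290 lower past the mark, against 896 and 647 after thinning, 663 and 466 as a mean over cells, 3167 and 2199 with no floor and 178 and 101 with a floor of 50 CPM. No paired analysis was possible because each group is 1 library, and no library could be left out. Depth limits Il12rb2, Il2ra and Il6ra most, with 194 to 518 UMIs per library.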

Other observations

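Beside the receptors, genes of effector function and inhibitory receptors were counted from lists in the same comparison of the libraries. Of 11 effector genes with enough UMIs, 1 was higher in the obese library, Gzmk (68.7 against 94 CPM), and 6 were lower. Among these were the granule genes Prf1 (417 against 171 CPM, log2 ratio -1.29) and Gzmb (1311 against 616 CPM, -1.09) and the chemokine Ccl4 (1705 against 1016 CPM, -0.75). Of 7 inhibitory receptor and exhaustion genes, 0 were higher and 4 lower: Lag3 (278 against 150.3 CPM), Havcr2 (99.5 against 55.2 CPM), Entpd1 (49.4 against 28.3 CPM) and Pdcd1 (205 against 146 CPM). Of 12 activation and costimulation genes, 2 were higher, Cd69 and Cd28, and 2 lower, Tnfrsf9 and Irf8. Of 10 resting and memory genes, 2 were higher, Lef1 (36.0 against 47.2 CPM) and Slfn5, and 0 lower, and of 10 proliferation genes 1 was higher, Mcm5. Of 7 type I interferon genes, 0 passed. How these values relate to those of Il12rb2 and Il18rap was not tested. The part of the different mix of clusters in them was not tested either.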
